A study of Mus musculus with 4 samples.

Results

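The genes described here are 47 DNA replication, nucleotide supply and G1/S genes, chosen by name from the 21937 gene symbols of a read count table. All 47 were in the table. The table gives mRNA reads of CD4+ T cells taken from the spleens of 6-week-old B6 mice, with 1 library per genotype. The genotypes were a double knockout of Itch and WWP2 (as labelled), Itchf/f Cd4cre (Itch KO, a floxed allele cut by a Cre that the Cd4 promoter drives in T-lineage cells), WWP2-/- (WWP2 KO) and wild type. All 4 libraries came from cells stimulated with PMA, a phorbol ester, and ionomycin, which carries calcium into cells, so no resting cells serve as a baseline. The study asks what the NEDD4-family ubiquitin ligases Itch and WWP2 do in CD4+ T cell activation. Neither the length of stimulation, nor the number of mice behind a library, nor how Itch was deleted in the double knockout is given in the sources used here.

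A resting T cell that receives an activating signal leaves quiescence through D cyclins and CDK4 or CDK6, which release E2F factors from the retinoblastoma family of repressors. E2F factors then switch on cyclin E, replication factors and the enzymes that supply deoxynucleotides. Replication origins are bound by the origin recognition complex, onto which CDC6 and CDT1 load the MCM2-7 helicase. CDC45, GINS and MCM10 activate that helicase, and primase, the DNA polymerases, the PCNA clamp and its loader copy the template.

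Total counts per library lay between 17130747 and 17990392 reads, so depth limited the 4 libraries alike. Wwp2 had 1135 reads in the library labelled DKO, 1332 in Itch KO and 4 in WWP2 KO, against 1363 in wild type. Those in the first go against its label of DKO (Itch and WWP2), and that label is kept here only as a name. Counts over the whole Itch gene (1914 to 2389 reads) do not separate the floxed part from the rest and check neither Itch label. The summed level of 9 T cell markers was 2650 to 3053 CPM (reads scaled to a common library size, after TMM adjustment) in the 4 libraries. Single markers moved both ways within that sum. Cd4 itself had 508, 246 and 169 CPM in the library labelled DKO, Itch KO and WWP2 KO, against 235 CPM in wild type. It was 2.16-fold higher in the first than in wild type (2.09 to 2.25). Cd3g was also higher in the library labelled DKO, at 167 CPM against 76.1 in wild type. Cd5 was lower there, at 295 against 697 CPM, and so was Cd28, at 234 against 313 CPM. Among markers of other cells, 8 B cell genes summed to 1.56 to 4.15 CPM, 2 CD8 T cell genes to 6.53 to 15.9 CPM and 6 erythroid genes to 0.173 to 0.538 CPM. The sum of 6 NK cell genes was 2.64 CPM in the library labelled DKO, 6.69 in Itch KO and 8.40 in WWP2 KO, against 12.4 in wild type, mostly from Klrd1 and Klrb1c. The sum of 7 mast cell and basophil genes was 5.27 CPM in the library labelled DKO, 10.9 in Itch KO and 28.9 in WWP2 KO, against 24.9 in wild type. It was almost all Kit (85, 188, 493 and 429 reads in that order), with Fcer1a, Ms4a2, Mcpt4 and Tpsb2 at 0 in all 4, while Mcpt8 had 12, 0, 2 and 0 reads. The sum of 9 macrophage and dendritic cell genes ran the other way, at 39.1, 25.8, 8.81 and 10.3 CPM in the same order of libraries. It came mostly from Cd68, Xcr1 and Mpeg1, while Csf1r had 2 reads in the library labelled DKO and 0 in each of the others. For 6 neutrophil genes the sums were 1.18, 0.288, 0.175 and 0.0577 CPM in that order, with S100a8 and Elane at 0 reads in all 4. The part of these cells in the differences below was not tested.

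The 47 genes did not differ from wild type as a block. In the library labelled DKO a subset of 15, led by E2f2, Mcm10 and Rrm2, stood at least 2-fold above wild type. Of these, 7 had under 2 CPM in wild type and 8 had more. MCM2-7 and Pcna stood closer to wild type, at log2 ratios from -0.10 to 0.44, and Cdk4 stood below it. A call of at least 2-fold required 3 things. The log2 ratio of CPM, with a prior count of 2, had to reach 1 in size, the gene had to average 2 CPM or more across libraries, and the exact binomial 95% interval of its fold had to exclude 1. No genotype has a replicate library. A call therefore compares 2 libraries, its interval covers counting error only, and no p-value belongs to it. Of the 47 genes 45 passed the mean of 2 CPM, and Gins1 and Ccne2 did not.

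Against wild type, the library labelled DKO had 15 of the 45 genes at least 2-fold higher, or 33.3%, where 12.3% of the 9926 genes tested were called higher. A single member, Cdk4, was at least 2-fold lower, where 6.34% of all genes were. The median log2 ratio was 0.39 for the 45 genes and -0.03 for all genes tested. Weakly expressed genes were called more often in general, so the count was also taken by level. Of 16 members with a mean of 2 to 10 CPM, 11 were called higher (68.8%, against 27.5% of all genes at that level), and of 29 with a mean of at least 10 CPM, 4 were (13.8% against 8.42%). The 4 were Lig1, Pole, Rrm1 and Rrm2. In all, 7 members (Orc1, Cdc6, Gmnn, Mcm10, Gins2, Ccne1 and E2f2) had under 2 CPM in wild type and were all among the 15. Each was highest in the library labelled DKO, which raised the mean that the filter used. Without that library 42 members, rather than 45, had a mean of 2 CPM or more. Among the 38 members with at least 2 CPM in wild type, 8 were higher (21.1%, against 9.50% of genes so restricted). In bulk RNA, more cells in S phase and more transcript per cell cannot be told apart.

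**Figure D1:**
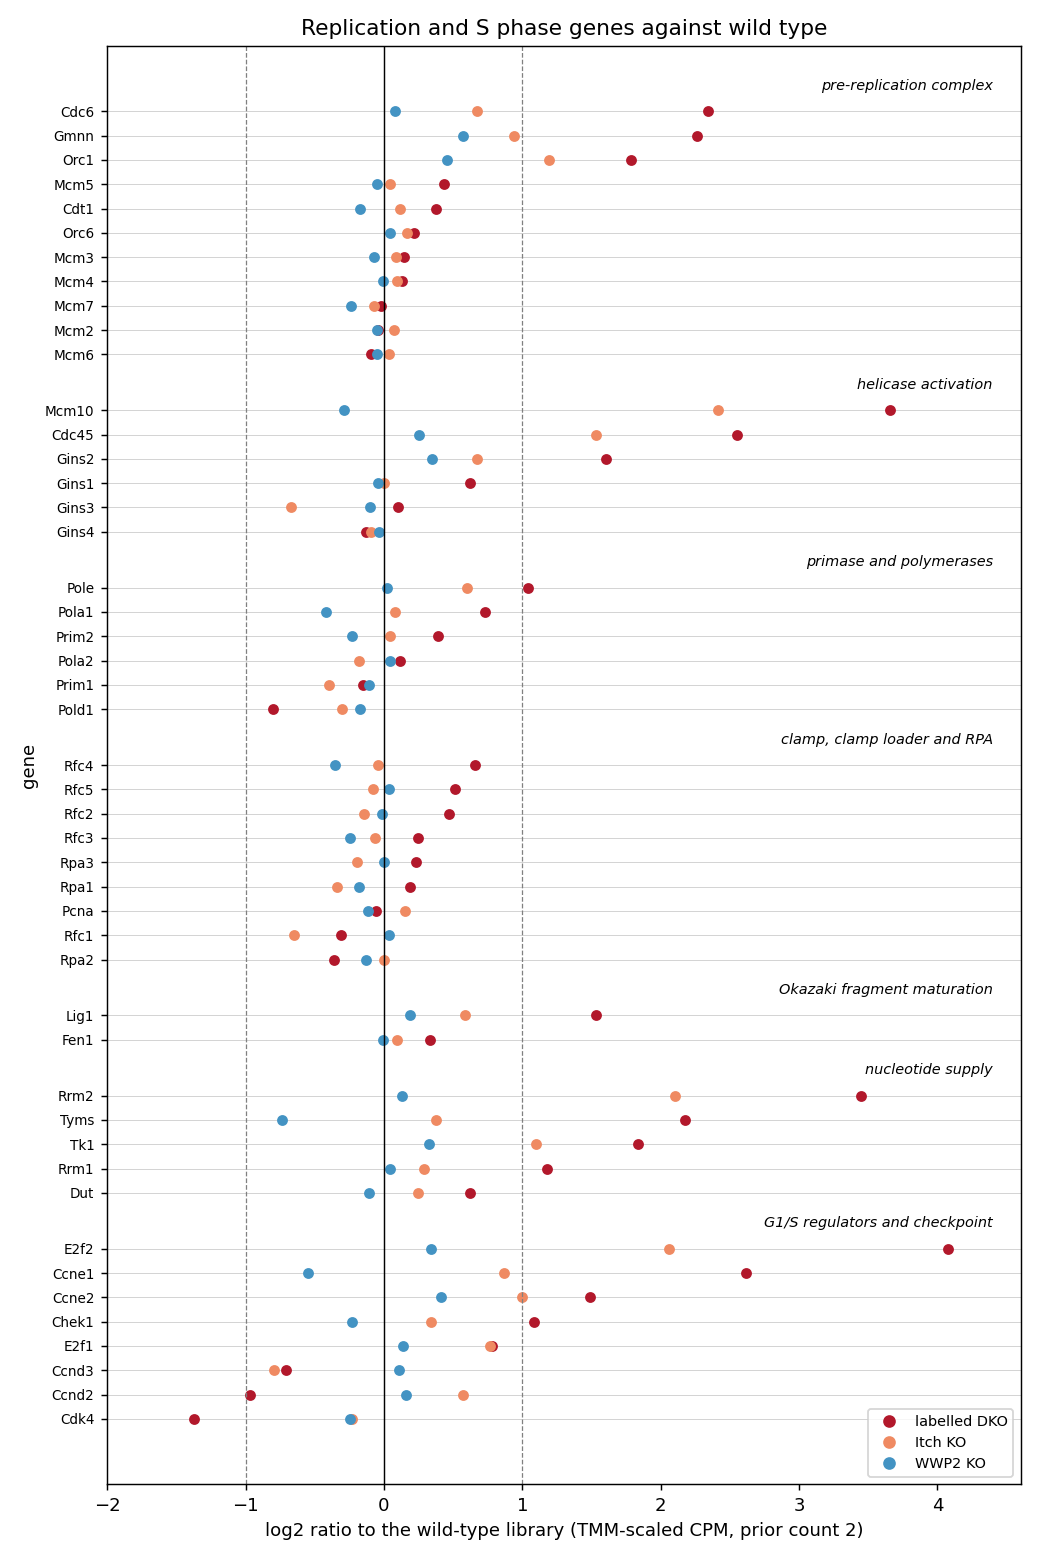
Log2 ratio of each of the 47 genes to the wild-type library (horizontal axis, TMM-scaled CPM with a prior count of 2) for the library labelled DKO, Itch KO and WWP2 KO, 1 library each, with genes grouped by role. Dashed lines mark a log2 ratio of 1 in either direction; the labelled DKO points reach 4.08 for E2f2 and -1.37 for Cdk4, and the WWP2 KO points lie between -0.73 and 0.57.

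The first role is licensing of origins. In the library labelled DKO against wild type 0 of 11 genes were called lower (6.34% of all genes). Called higher were 3 (27.3%, where 12.3% of all genes were). All 3 had under 2 CPM in wild type, and 0 of the 8 licensing genes with at least 2 CPM there were called. Cdc6, the ATPase that loads the MCM helicase, had 6.29 CPM in the library labelled DKO, 1.90 in Itch KO and 1.22 in WWP2 KO, against 1.15 in wild type (117, 33, 21 and 20 reads). It was 5.46-fold higher in the library labelled DKO than in wild type (95% counting interval 3.38 to 9.26). Gmnn encodes geminin, which binds CDT1 and blocks relicensing. Its levels were 9.85, 3.86, 2.97 and 1.96 CPM in that order of libraries, a 5.02-fold difference between the first and wild type (3.47 to 7.47). Orc1, the largest subunit of the origin recognition complex, stood at 5.43, 3.57, 2.10 and 1.5 CPM, 3.62-fold higher (2.34 to 5.81). In each of these 3 genes the library labelled DKO was highest, Itch KO next and wild type lowest. The counting interval between WWP2 KO and wild type held 1 for all 3, so the order of these libraries is not resolved. For Cdc6 the interval between Itch KO and wild type held 1 too.

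The helicase those factors load behaved otherwise. Mcm2 had 94.7 CPM in the library labelled DKO, 103 in Itch KO and 94.4 in WWP2 KO, against 97.6 in wild type (1761, 1783, 1619 and 1692 reads), and its fold of the first to wild type was 0.971 (0.908 to 1.04). Mcm6 had the lowest ratio of the licensing genes, with 139, 152, 143 and 148 CPM in the same order and a fold of 0.935 (0.885 to 0.988). Mcm5 had the highest ratio among the 6 subunits, with 108, 82.3, 77.2 and 79.8 CPM and a fold of 1.35 (1.26 to 1.45). Mcm3, Mcm4 and Mcm7 had log2 ratios of 0.14, 0.13 and -0.02 to wild type. The 6 subunits of the ring thus stayed within log2 ratios of -0.10 to 0.44, while their loader Cdc6 reached 2.34. Cdt1, the other loading factor, had 44.3 CPM in the library labelled DKO, 37.0 in Itch KO and 30.3 in WWP2 KO, against 34.1 in wild type, a fold of 1.30 (1.17 to 1.45). Orc6, the smallest origin recognition subunit, was at 1.16-fold (0.986 to 1.37), an interval that holds 1.

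E2F factors bind a short element near the start of many of these genes, so promoters were searched for the octamers TTTGGCGC, TTTCCCGC, TTTCGCGC and TTTGCCGC on both strands. The window ran from 250 bases before to 50 bases after each annotated start (RefSeq, GRCm38.p6, a later build than the mm9 of the counts). Of 37 members with a promoter there, 13 held an octamer (35.1%), against 704 of 27025 genes in all (2.60%). The share was 4 of 12 matched members called higher in the library labelled DKO (33.3%) and 9 of 25 other members (36.0%). No test was run on these shares, and a match of letters is not a bound site. The bases just before the start are shown for a pair of licensing genes called higher and a pair of helicase subunits not called. A stretch of Cdk4, called lower, follows. Each runs 5′ to 3′ on the gene's strand, ends next to the start, and has octamers of either strand in capitals. Both helicase subunits hold overlapping octamers, TTTCGCGC running into the reverse complement of TTTGGCGC in Mcm5 and TTTGGCGC running into the reverse complement of TTTCGCGC in Mcm6, which holds a further TTTGGCGC. The Cdk4 stretch holds none. The other stretches all hold an octamer, so they do not stand for the members, of which 35.1% did. Mcm2 and Pcna held none in the window. The intervals, in the order printed, are chr4:108579294-108579453 (+), chr11:98907991-98908150 (+), chr8:75109349-75109508 (+), chr1:128359706-128359865 (-) and chr10:127063375-127063534 (+).
Orc1: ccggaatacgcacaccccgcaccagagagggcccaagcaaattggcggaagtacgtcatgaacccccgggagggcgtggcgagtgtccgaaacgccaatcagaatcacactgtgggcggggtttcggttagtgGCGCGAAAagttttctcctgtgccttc
Cdc6: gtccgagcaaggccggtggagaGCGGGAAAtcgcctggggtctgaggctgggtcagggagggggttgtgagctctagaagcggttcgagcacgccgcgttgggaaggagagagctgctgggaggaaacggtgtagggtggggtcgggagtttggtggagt
Mcm5: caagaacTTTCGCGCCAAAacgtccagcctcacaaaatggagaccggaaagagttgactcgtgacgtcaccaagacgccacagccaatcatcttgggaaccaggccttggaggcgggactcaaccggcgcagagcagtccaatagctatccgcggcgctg
Mcm6: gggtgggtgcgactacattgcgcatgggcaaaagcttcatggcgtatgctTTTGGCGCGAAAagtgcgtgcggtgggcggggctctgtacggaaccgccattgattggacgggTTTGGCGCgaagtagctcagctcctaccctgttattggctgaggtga
Cdk4: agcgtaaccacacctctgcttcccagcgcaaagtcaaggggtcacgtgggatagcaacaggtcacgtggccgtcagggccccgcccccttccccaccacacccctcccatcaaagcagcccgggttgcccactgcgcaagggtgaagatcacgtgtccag

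Helicase activation came next. Mcm10, which helps the loaded helicase to start unwinding, had 11.5 CPM in the library labelled DKO, 4.79 in Itch KO and 0.642 in WWP2 KO, against 0.807 in wild type (214, 83, 11 and 14 reads). It was 14.3-fold higher in the library labelled DKO (8.31 to 26.5) and 5.93-fold higher in Itch KO (3.34 to 11.3) than in wild type. Cdc45, a subunit of the active helicase, had 15.1, 7.38, 2.97 and 2.48 CPM in the same order. Its folds to wild type were 6.07 (4.39 to 8.58) and 2.98 (2.09 to 4.31). For both genes the libraries labelled Itch-deficient stood above both others. The GINS subunits, which form a 4-member ring beside CDC45, differed among themselves. Gins2 had 4.63, 2.36, 1.87 and 1.44 CPM and was 3.21-fold higher in the library labelled DKO than in wild type (2.04 to 5.23). Gins4 had 22.7, 23.2, 24.1 and 24.7 CPM, with a fold of 0.915 (0.798 to 1.05). Gins3 was lowest in Itch KO, with 6.89, 3.98, 5.95 and 6.40 CPM, and its log2 ratios to wild type were 0.10 in the library labelled DKO and -0.67 in Itch KO. Gins1 had 39, 23, 22 and 23 reads, under the filter.

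Of 6 primase and polymerase genes, Pole alone was called in the library labelled DKO against wild type. That is 16.7% called higher, near the 12.3% of all genes. Pole, the catalytic subunit of the leading-strand polymerase epsilon, had 20.2 CPM in the library labelled DKO, 14.9 in Itch KO and 9.92 in WWP2 KO, against 9.75 in wild type, 2.07-fold higher in the first than in wild type (1.72 to 2.5). Pola1, the catalytic subunit of polymerase alpha, had 22.4, 14.2, 10.03 and 13.4 CPM, a fold of 1.67 (1.42 to 1.96). Pold1, the catalytic subunit of polymerase delta, which copies the lagging strand, ran the other way. It had 24.1, 34.2, 37.4 and 42.2 CPM, and its level in wild type was 1.75-fold that in the library labelled DKO (1.55 to 1.97), short of 2-fold. The catalytic subunits of the polymerases for the leading and lagging strand therefore stood on opposite sides of wild type. The primase genes Prim1 and Prim2 and the regulatory subunit gene Pola2 had log2 ratios of -0.15, 0.39 and 0.12.

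None of the 9 genes of the sliding clamp, its loader and the single-strand binding protein RPA passed the rule against wild type. This held in the library labelled DKO and in Itch KO. Over all genes tested 12.3% and 4.89% were called higher in these libraries, and 6.34% and 0.846% lower. Pcna, the clamp that holds polymerases on DNA and a common protein marker of proliferation, had 302 CPM in the library labelled DKO, 349 in Itch KO and 290 in WWP2 KO, against 315 in wild type (5615, 6056, 4979 and 5460 reads). Its folds to wild type were 0.959 (0.924 to 0.996) and 1.11 (1.07 to 1.15) in the first 2. The loader's small subunits Rfc4 and Rfc5 had the highest ratios of the group. Rfc4 had 8.72, 5.30, 4.26 and 5.48 CPM and Rfc5 had 19.6, 12.9, 14.1 and 13.7 CPM, 1.59-fold (1.23 to 2.07) and 1.43-fold (1.21 to 1.69) higher in the library labelled DKO than in wild type. Rfc1, the large subunit, had 47, 37.1, 59.6 and 58.2 CPM. Its 2 lowest libraries were those labelled Itch-deficient, with log2 ratios to wild type of -0.31 in the library labelled DKO and -0.65 in Itch KO. Rpa2, the middle subunit of RPA, had 22.1, 28.5, 26.0 and 28.5 CPM, the lowest ratio of the group at -0.36. Rpa1 was highest in the library labelled DKO and lowest in Itch KO, with 111, 77.0, 86.3 and 97.5 CPM.

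Lagging-strand fragments are trimmed by the nuclease FEN1 and sealed by DNA ligase 1. Lig1 had 40.4 CPM in the library labelled DKO, 20.9 in Itch KO and 15.9 in WWP2 KO, against 13.9 in wild type, 2.91-fold higher in the first than in wild type (2.51 to 3.38). Fen1 had 57.7, 48.9, 45.6 and 45.7 CPM, a fold of 1.26 (1.15 to 1.39). The ligase passed the rule and the nuclease did not.

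Nucleotide supply had the largest share of calls among the role groups in the library labelled DKO against wild type. There 4 of 5 genes were higher (80%, where 12.3% of all genes were), with a median log2 ratio of 1.83. Rrm2 encodes the regulatory subunit of ribonucleotide reductase, the S phase enzyme that makes deoxynucleotides. It had 62.3 CPM in the library labelled DKO, 24.4 in Itch KO and 6.12 in WWP2 KO, against 5.59 in wild type (1157, 424, 105 and 97 reads). The folds to wild type were 11.1 (9.04 to 13.8) and 4.37 (3.5 to 5.51). Its partner Rrm1, the catalytic subunit, had 95.1, 51.3, 43.2 and 41.9 CPM, with a smaller difference of 2.27-fold (2.08 to 2.48). Tyms, thymidylate synthase, had 21.8, 6.17, 2.80 and 4.73 CPM and was 4.61-fold higher in the library labelled DKO than in wild type (3.63 to 5.92). WWP2 KO had the lowest Tyms level, 0.592 of wild type (0.406 to 0.855). Tk1, which salvages thymidine, had 14.5, 8.65, 5.02 and 3.98 CPM and was called higher in Itch KO too. Dut, which breaks down dUTP, had 22.9, 17.6, 13.8 and 14.8 CPM, a fold of 1.54 (1.32 to 1.81).

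**Figure D2:**
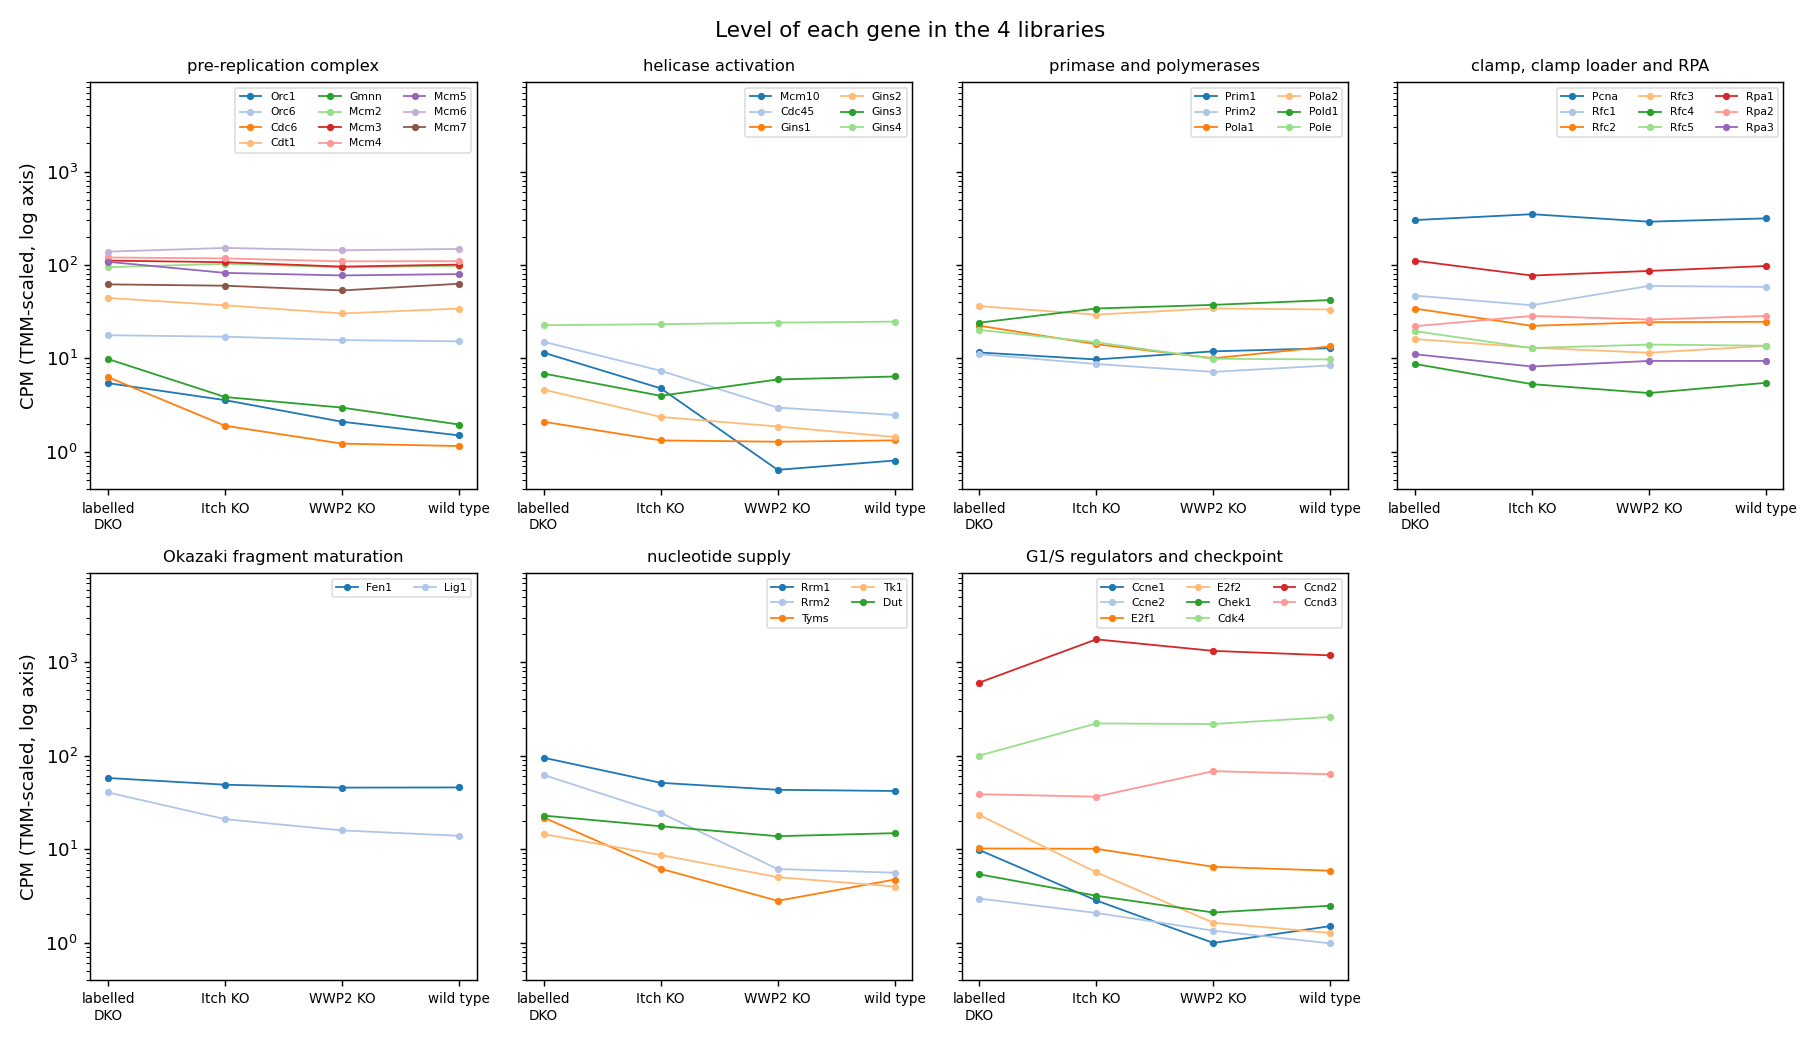
Level of each gene (vertical log axis, TMM-scaled CPM) in the 4 libraries, 1 panel per role group, each point 1 library; lines join the same gene and stand for no time or dose. Mcm2 to Mcm7 and Pcna run nearly level, with Mcm5 1.35-fold higher in the library labelled DKO than in wild type. Rrm2, Mcm10 and E2f2 descend from the library labelled DKO through Itch KO to the other pair, and Ccnd2 peaks in Itch KO at 1758 CPM.

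Of 7 tested G1/S regulators and checkpoint genes 3 were called higher and 1 lower in the library labelled DKO than in wild type. These are 42.9% and 14.3%, where 12.3% and 6.34% of all genes were. Of the 3 called higher, both E2f2 and Ccne1 had under 2 CPM in wild type. E2f2, an activator of S phase genes, had the highest ratio of all 47 genes. It had 23.2 CPM in the library labelled DKO, 5.65 in Itch KO and 1.63 in WWP2 KO, against 1.27 in wild type (431, 98, 28 and 22 reads). The folds to wild type were 18.3 (11.9 to 29.5) and 4.45 (2.78 to 7.43). E2f1, another activator, did not pass in either, with 10.2, 10.1, 6.47 and 5.88 CPM. Ccne1, cyclin E1, which with CDK2 starts S phase, had 9.79, 2.82, 0.992 and 1.5 CPM and was 6.53-fold higher in the library labelled DKO than in wild type (4.31 to 10.3). Ccne2, cyclin E2, had 55, 36, 23 and 17 reads and fell under the filter. Chek1, the kinase of the replication checkpoint, had 5.38, 3.17, 2.10 and 2.48 CPM, 2.17-fold higher (1.5 to 3.18).

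Cdk4 was the member called lower, and the D cyclins did not pass the rule against wild type. Cdk4, the kinase that D cyclins activate, had 100 CPM in the library labelled DKO, 221 in Itch KO and 218 in WWP2 KO, against 259 in wild type (1864, 3839, 3745 and 4499 reads). It was 2.59-fold lower in the library labelled DKO than in wild type (2.45 to 2.73). Ccnd2, cyclin D2, had 606, 1758, 1324 and 1185 CPM, and was thus lowest in the library labelled DKO and highest in Itch KO. It was 1.96-fold lower in the first than in wild type (1.91 to 2.0) and 1.48-fold higher in Itch KO (1.46 to 1.51), and neither passed the rule. Ccnd3, cyclin D3, had 38.7, 36.4, 68.4 and 63.3 CPM. Its 2 libraries labelled Itch-deficient were lower than the other 2, with folds to wild type of 0.612 (0.556 to 0.673) and 0.575 (0.521 to 0.635), also short of 2-fold.

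**Figure D3:**
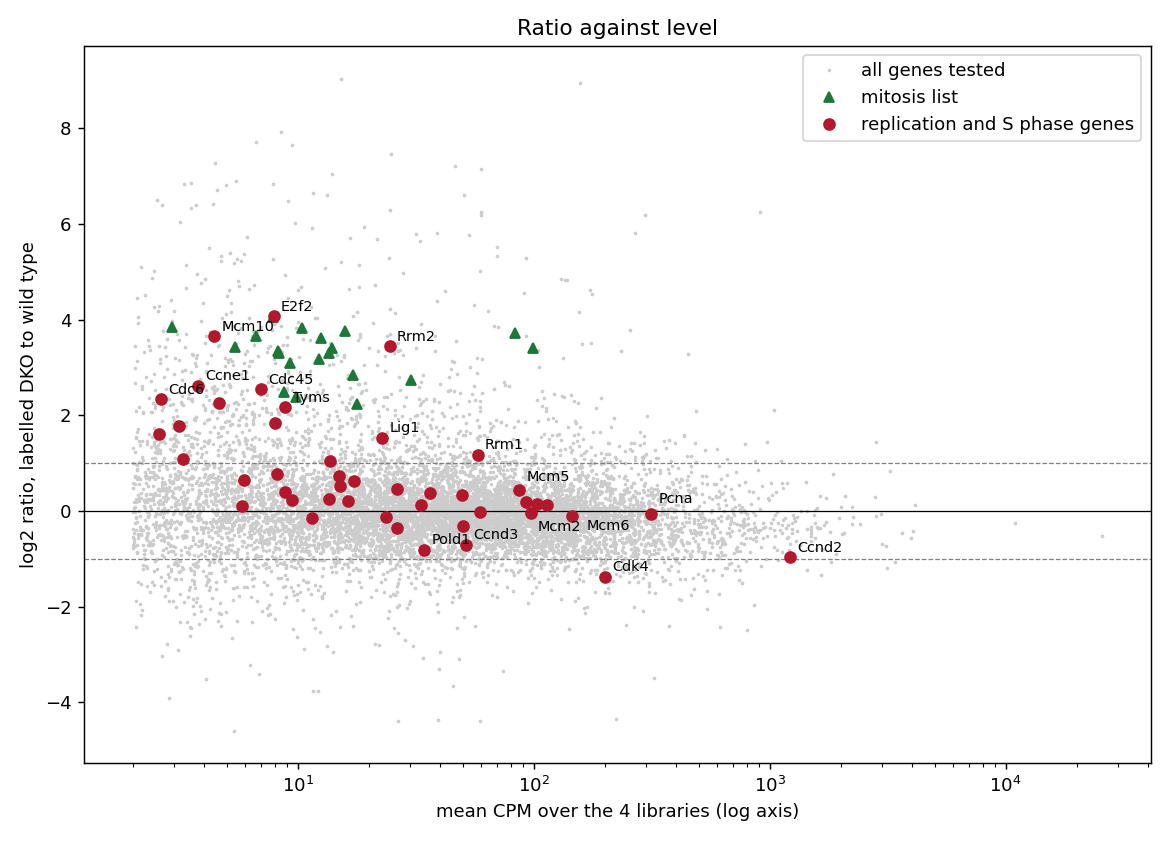
Log2 ratio of the library labelled DKO to wild type (vertical axis) against the mean level over the 4 libraries (horizontal log axis, CPM) for the 9926 genes tested, with the 45 replication and S phase genes and 20 mitosis genes marked. The mitosis genes all lie at 2.23 or higher, whereas the replication genes spread from -1.37 to 4.08, with those above 1 mostly at the low end of the level axis.

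The Itch KO library was set against wild type next, with loss of Itch taken from the label alone. Here 6 of the 45 genes were at least 2-fold higher (13.3%, where 4.89% of all genes were) and 0 were lower (0.846% of all genes). The 6 were Orc1, Mcm10, Cdc45, Rrm2, Tk1 and E2f2. The median log2 ratio of the 45 was 0.10, against -0.02 for all genes tested. Among the 38 members with at least 2 CPM in wild type 3 were called (7.89%, against 2.85%). By mean level, 5 of 16 members at 2 to 10 CPM were called (31.2%, where 12.5% of all genes were), and 1 of 29 at 10 CPM or more (3.45%, near the 2.94% of all genes). For 21 of the 45 the counting interval held 1, and it lay above 1 for 16 and below 1 for 8 (25.8% and 28.4% of all genes), with Ccnd3, Gins3 and Rfc1 lowest at log2 ratios of -0.80, -0.67 and -0.65.

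In WWP2 KO 0 of 45 members were at least 2-fold higher and 0 lower than wild type, where 0.282% and 0.161% of all genes were. The median log2 ratio was -0.03, against -0.01 for all genes. Counting intervals excluded 1 from below for 8 members and from above for 1, Ccnd2 at 1.12-fold (1.10 to 1.14), where 17.6% and 14.5% of all genes did so. The extremes were Tyms at -0.73 and Gmnn at 0.57, on 48 and 51 reads in WWP2 KO against 82 and 34 in wild type.

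Against Itch KO, the library labelled DKO had 8 members at least 2-fold higher (17.8%, where 9.18% of all genes were) and 2 lower (4.44%, where 5.16% were). Those higher were Cdc6, Gmnn, Mcm10, Cdc45, Rrm2, Tyms, Ccne1 and E2f2, and those lower were Cdk4 and Ccnd2. E2f2 was 4.10-fold higher (3.29 to 5.16), Tyms 3.53-fold (2.85 to 4.41) and Ccne1 3.47-fold (2.52 to 4.85). By mean level, 7 of 16 members at 2 to 10 CPM were higher (43.8%, where 22.8% of all genes were), and 1 of 29 at 10 CPM or more (3.45%, below the 5.71% of all genes). Ccnd2 was 2.90-fold lower (2.84 to 2.97), the largest difference downward among the members in this comparison. Against WWP2 KO it had 17 higher (37.8%, where 11.6% of all genes were) and 2 lower (4.44%, where 6.05% were). The 17 were the 15 called against wild type together with Pola1 and Rfc4. They were 12 of 16 members at 2 to 10 CPM (26.3% of all genes) and 5 of 29 at 10 CPM or more (17.2%, where 7.90% of all genes were). The comparisons with wild type, Itch KO and WWP2 KO share the library labelled DKO, so these counts are not independent.

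The pair Itch KO and wild type shares no library with the pair labelled DKO and WWP2 KO, and both differ by the Itch label. By the reads, the second pair also differs in Wwp2 (1135 against 4 reads), so it is not a contrast of Itch alone. Over the 45 tested members and the 2 under the filter the log2 ratios of the pairs correlated with a Pearson r of 0.82 and a Spearman rho of 0.77 (47 genes), and over all 9926 genes tested with 0.70 and 0.45. These are correlations across genes, which are not independent replicates, within 4 libraries of similar depth.

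An additive model with a term for each ligase, fitted to all 4 libraries with edgeR's quasi-likelihood test, has a single residual degree of freedom, and only the departure from additivity measures its spread. For Itch loss 0 of 45 members passed a Benjamini-Hochberg adjusted p of 0.05, where 0.0101% of all genes were called higher and 0% lower. At an unadjusted p under 0.05 there were 12 of the 45 members, and 1300 of all 9926 genes tested. The smallest adjusted p among the members was 0.124, for Rrm2. DESeq2 with the same terms called 4 members higher for Itch loss, named after their values were seen: Rrm2, E2f2, Mcm10 and Cdc45, at log2 estimates of 2.77, 3.04, 3.39 and 1.99. It called 4.96% of all genes higher. The same 4 were called by edgeR without a low filter, which called 3.02% of all genes higher. For WWP2 loss 0 of 45 members passed in edgeR, where 0% of all genes were called higher and 0% lower. At an unadjusted p under 0.05 there were 0 members, and 213 of all 9926 genes tested. In DESeq2 0 members passed, where 0.131% of all genes were called higher and 0% lower. Both terms, and the residual degree of freedom, rest on the library labelled DKO being deficient in WWP2, which its Wwp2 reads put in doubt.

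The other lists below were written with earlier results of these data known. Of 28 tested other replication factors (29 of 31 listed were in the table), 5 were higher (17.9%, near the 12.3% of all genes) and 1 was lower (3.57%, where 6.34% of all genes were) in the library labelled DKO than in wild type, with a median log2 ratio of 0.06. Clspn, the adaptor through which CHK1 is activated, was 10.5-fold higher (7.36 to 15.5), and Dna2, a nuclease of fragment processing, was 4.66-fold higher (3.14 to 7.15). Timeless, of the fork protection complex, was 3.87-fold lower (3.33 to 4.52), with 11.8 CPM in the library labelled DKO, 19.1 in Itch KO and 42.1 in WWP2 KO, against 45.9 in wild type. In Itch KO too it was lower than in wild type, by 2.40-fold (2.11 to 2.74). Orc2, an origin recognition subunit, had a log2 ratio of -0.88 in the library labelled DKO. Of 11 genes for chromatin assembly in S phase, 3 were higher there (27.3%) and 0 lower, median 0.38. The histone chaperone gene Asf1b was 7.69-fold higher (5.89 to 10.2) and Uhrf1, which guides maintenance DNA methylation, 5.79-fold (4.95 to 6.82). At the other end of that list were Cdca7 at -0.91 and Nasp at -0.53.

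Nucleotide synthesis genes outside the 5 members were mostly lower. Of 19 other genes for making or balancing nucleotides, 8 were at least 2-fold lower in the library labelled DKO than in wild type (42.1%, where 6.34% of all genes were) and 1 was higher (5.26%, where 12.3% were), with a median log2 ratio of -0.96. Cad, which starts pyrimidine synthesis, had 175 CPM in the library labelled DKO, 372 in Itch KO and 393 in WWP2 KO, against 456 in wild type, 2.60-fold lower in the first than in wild type (2.5 to 2.71). Samhd1, which degrades deoxynucleotides, was 3.62-fold lower (3.47 to 3.77), with 156, 349, 616 and 564 CPM. It acts against supply, so the list's lower genes are not all synthetic enzymes. In Itch KO 0 of the 19 passed in either direction, median -0.13.

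Among 20 tested G1/S regulators outside the members, 5 were higher (25%, where 12.3% of all genes were) and 0 lower in the library labelled DKO than in wild type. Ccna2, cyclin A2, was 13.4-fold higher (10.4 to 17.6), with 48.8 CPM in the library labelled DKO, 18.6 in Itch KO and 2.62 in WWP2 KO, against 3.63 in wild type. E2f8, a repressor of the E2F family, was 13.5-fold higher (8.88 to 21.7). The lowest were Atr, the checkpoint kinase gene, at -0.96 and E2f5 at -0.89. Rbl2, the retinoblastoma family gene for p130, was the single gene of all these lists called in WWP2 KO, and is named after its values were seen. It had 120 CPM in the library labelled DKO, 30.6 in Itch KO and 59.4 in WWP2 KO, against 26.6 in wild type, 2.24-fold higher in WWP2 KO than in wild type (2.0 to 2.5). Of 4 tested CDK inhibitor genes Cdkn2c, which blocks CDK4 and CDK6, was the one called higher in the library labelled DKO. That is 25% of the 4, where 12.3% of all genes were called higher. Cdkn2c had 7.80, 2.77, 0.758 and 0.750 CPM in the same order of libraries. Cdkn2b, with 55, 9, 8 and 1 reads, and Cdkn2a, with 44, 17, 2 and 2, were under the filter.

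In the library labelled DKO and in Itch KO all 20 listed mitosis genes stood above wild type, where the replication genes lay on both sides. All 20 were at least 2-fold higher than wild type in the library labelled DKO (median log2 ratio 3.37, from 2.23 to 4.06). All 20 were so in Itch KO too (median 1.84, from 1.11 to 2.44). Of all genes tested 12.3% and 4.89% were called higher in these libraries. In wild type the median level was 3.11 CPM for the mitosis list and 13.7 CPM for the 47 members. The lists were thus not matched for level. In WWP2 KO 0 of 20 passed (0.282% of all genes were higher), and 9 of 20 had a positive log2 ratio. Mki67, which encodes the proliferation antigen Ki-67, had 222 CPM in the library labelled DKO, 81.5 in Itch KO and 14.2 in WWP2 KO, against 16.7 in wild type, 13.3-fold higher in the first (11.8 to 15.0). The list was written with its higher level in these libraries known. In promoters the cell cycle element TTTGAA (CHR), searched on both strands, was found for 12 of 17 matched mitosis genes (70.6%), 5 of 37 matched members (13.5%) and 20.2% of all genes, while the E2F octamers were found for 1 of 17 mitosis genes. Histone genes that are made in S phase have messages without a poly(A) tail. The libraries, made after mRNA enrichment, held few reads of histone genes, and the reason was not tested. The 67 genes whose symbols begin with Hist1h to Hist4h together had 341 reads in the library labelled DKO, 152 in Itch KO and 114 in WWP2 KO, against 141 in wild type, and 2 of them passed the filter, neither called.

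**Figure D4:**
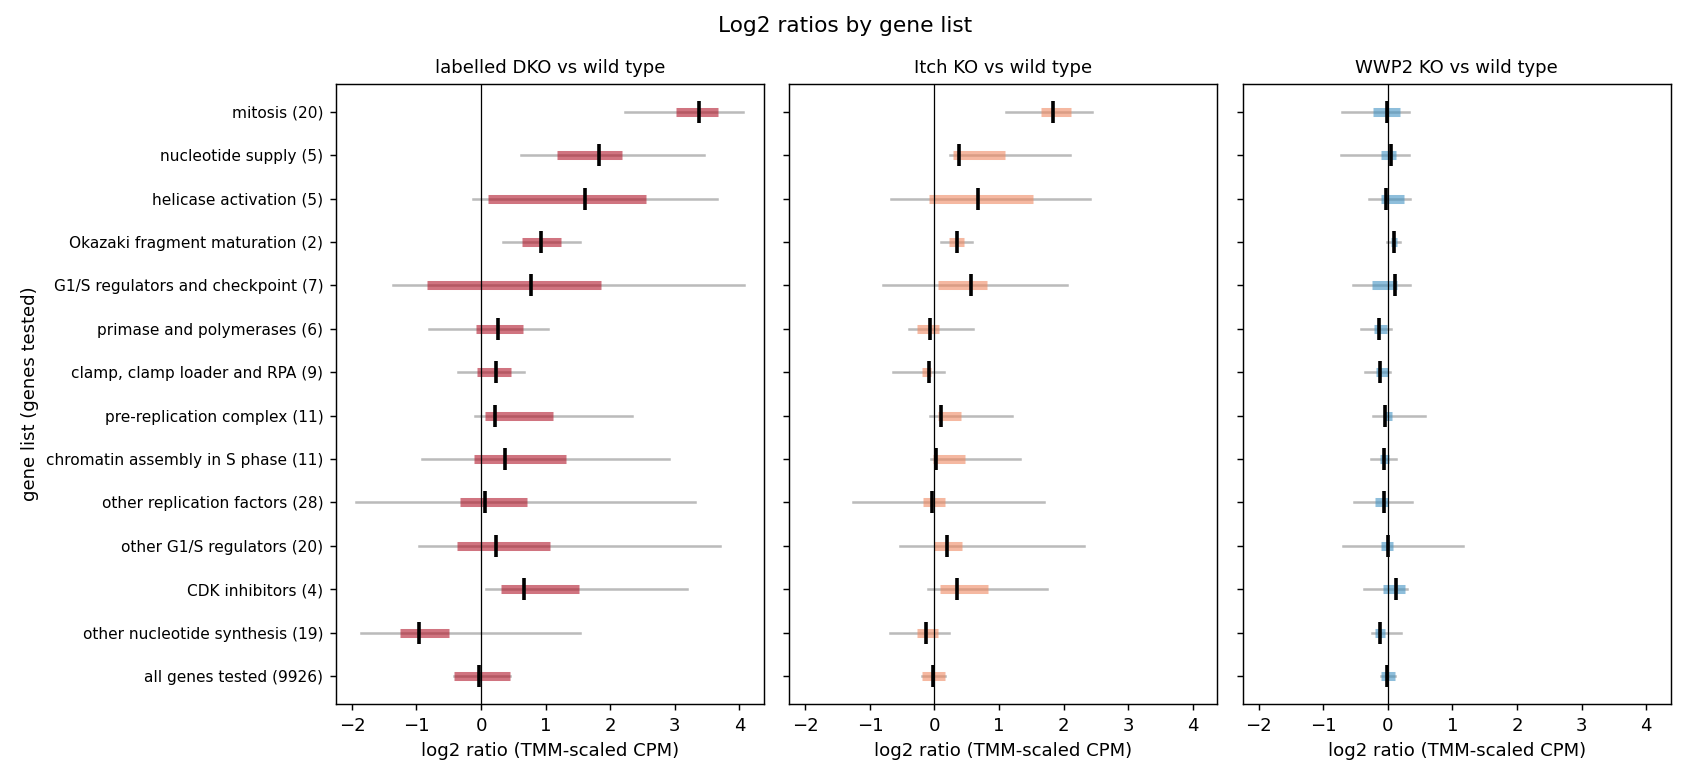
Log2 ratios to wild type by gene list for the library labelled DKO, Itch KO and WWP2 KO (1 library each): black ticks are medians, coloured bars the interquartile range and grey lines the full range, which is left out for all 9926 genes tested. Mitosis genes have medians of 3.37, 1.84 and -0.02, nucleotide supply members 1.83, 0.38 and 0.04, and other nucleotide synthesis genes -0.96, -0.13 and -0.12.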

How the data were processed

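The authors deposited raw read counts per gene symbol for 4 libraries, without normalization. Per the submitters' processing notes, the tools were TopHat 1.4.1, Bowtie 1.0.0 and HTSeq 0.7.1 with build mm9. The sources used here name no annotation, strand setting or filter. Reads shared with antisense genes or pseudogene copies (Pcna, Tyms and Ccnd3 have some) can therefore be misassigned.

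TMM factors (0.983 to 1.03) came from edgeR 4.0.16 in R 4.3.3. Folds carry no prior count and log2 ratios a prior count of 2. The additive model used edgeR's quasi-likelihood test over 9926 genes with a mean of at least 2 CPM, with DESeq2 1.42.0 as an alternative; scripts were tested on simulated data. Figures used matplotlib 3.10.9. Alternatives were other scalings, low filters, a prior count of 0.5 and other models.

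Members and lists were chosen with earlier results of these data known. Values in every library were set for the 2 highest and 1 lowest member of each role group, members called lower, Pcna, Mcm2, Cdk4, Ccnd2 and Ccnd3, for Itch, Wwp2 and Mki67, and the 2 highest and 2 lowest genes of other lists; those of other members and of Rbl2 were added after their values were seen. One result among the other lists is not reported here.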

Additional observations from a re-analysis of the deposited data

Results flagged for a closer look

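Ccnd2 and Rpa1 were picked out because the difference that goes with the Itch label ran opposite ways in the pairs that share no library. Ccnd2 had a log2 ratio of -1.13 in the library labelled DKO against WWP2 KO and of 0.57 in Itch KO against wild type. Rpa1 had a log2 ratio of 0.37 in the library labelled DKO against WWP2 KO and of -0.34 in Itch KO against wild type. In each the counting interval excluded 1 on opposite sides. With 1 library per genotype the difference between the pairs was not tested.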

How the results depend on the processing

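Other scalings (DESeq2 size factors, library totals), no low filter and a prior count of 0.5 kept each count of called members within 1.5 times and each median within 0.1, as did scaling Itch KO and WWP2 KO without the library labelled DKO, an alternative added after seeing the data. A mean of at least 10 CPM tests 29 members, fewer by construction. It left 4 called higher in the library labelled DKO against wild type (median 0.14), 1 in Itch KO (3.45%, where 2.94% of all genes were), 1 against Itch KO (median 0.25; 3.45%, where 5.71% were) and 5 against WWP2 KO (median 0.21). At that level the shares in Itch KO and against Itch KO lay near or below those of all genes. For Itch loss, 4 members were called higher by DESeq2 and 4 by edgeR without a low filter. With Itch loss alone and each library left out in turn, members called ranged from 0 to 26 higher and from 0 to 5 lower: 9 and 2 without the library labelled DKO (9.16% and 6.46% of all genes), 26 and 5 without Itch KO (28.4% and 29.3% of all genes), and 0 without WWP2 KO or wild type. The lone library of a group is then assumed to vary like the other group, and the cause was not tested. No paired analysis was possible because each genotype has 1 library. Depth limits Mcm10, Cdc6, E2f2, Gins2, Orc1 and Ccne1 most among the called members, with 14 to 26 wild-type reads. Scaling by library totals moved the median of all genes to 0.10 in the library labelled DKO against Itch KO, where that of the members was 0.46.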
